A study of Mus musculus with 6 samples.

Results

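The 10 genes described here encode enzymes that make and conjugate bile acids in the liver: Cyp7a1, Cyp8b1, Cyp27a1, Cyp7b1, Cyp39a1, Hsd3b7, Akr1d1, Cyp2c70, Slc27a5 and Baat. They were taken by name from the 47729 genes in the deposited counts, for their place in the pathway. That choice was made with earlier results of these data known. All 10 were found, and 9 had reads in the count files. Hsd3b7 had 0 reads in every library, although the deposited FPKM table gave it a level above 140 in each. Positions are those of GENCODE M21 on GRCm38, and all 10 are protein-coding genes.

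Hepatocytes turn cholesterol into bile acids by a classic route, which opens with the hydroxylase CYP7A1 in the endoplasmic reticulum, and by an alternative route, in which CYP27A1 in the mitochondria first hydroxylates the side chain and CYP7B1 then acts on the oxysterol. HSD3B7 and AKR1D1 rework the sterol rings in both routes, CYP8B1 steers the product toward cholic acid, and in mice CYP2C70 makes the muricholic acids. The product is activated to a coenzyme A ester by the SLC27A5 protein and joined to taurine by BAAT. Bile acids that bind the receptor FXR, encoded by Nr1h4, are known to lower transcription of Cyp7a1 and Cyp8b1.

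RNA from livers of C57BL/6 mice was sequenced in 3 libraries with Atoh8 knockdown, named shAtoh8 in the series design, and in 3 control libraries, named shNC there and WT in the sample titles. Both groups had been fed 0.1% DDC, which blocks heme synthesis and causes cholestatic liver injury, for 17 days. The labels name the liver as tissue of origin and the hepatocyte as cell type, and the libraries also held RNA of other liver cells. The carrier and promoter of the short hairpin RNA, and the age and sex of the mice, are not given in the sources used here. Nothing in the labels says that the libraries of a group came from separate animals, so the p-values measure the spread between these libraries, which may be technical.

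Reads in genes ran from 36915731 to 37969644 in the knockdown libraries and from 31912058 to 36970491 in the control libraries. Atoh8 stood at 10.2, 9.83 and 5.64 CPM, read counts scaled by library size, in the knockdown libraries, against 63.8, 16.8 and 16.4 CPM in control replicates 1 to 3. Every knockdown library lay below every control, with a log2 fold change of -1.92 (SE 0.58) that did not pass (edgeR adjusted p = 0.197) and one of -0.95 (SE 0.23) without control replicate 1 that did (edgeR adjusted p = 0.0115). The ATOH8 protein is a transcription factor of the basic helix-loop-helix class. Control replicate 1 stood apart from all other libraries on the first principal component of log2 CPM, which held 48.2% of the variance. There the knockdown libraries lay between it and control replicates 2 and 3. On the second component, with 36.4% of the variance, control replicate 1 lay with the other controls, apart from the knockdown libraries. Of the 8 hepatocyte markers found, the lowest value in any library was 1399 CPM, for Apob, and their summed level was 122017 to 137437 CPM in knockdown and 129249 to 170754 CPM in control libraries. None of the 8 was called by edgeR with all libraries. Without control replicate 1, 3 were called lower and 0 higher, beside 16.1% and 16.5% of all tested genes. With liver as tissue and hepatocyte as cell type, the labels do not decide between whole-liver RNA and RNA of isolated hepatocytes. In RNA of mixed cells, fewer hepatocytes and less RNA per hepatocyte cannot be told apart.

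No member passed in the comparison of all 6 libraries by the edgeR quasi-likelihood test, with Benjamini-Hochberg adjustment over 13767 genes and an adjusted p under 0.05. Of the 9 members tested, 0 were called lower and 0 higher, where 0.123% of all tested genes were called lower and 0.741% higher. Before adjustment Cyp7a1 and Cyp27a1 lay under 0.05 in edgeR, as did 2002 of all tested genes. Fold changes were negative for 7 members and positive for 2, with a median of -0.72 on the log2 scale against -0.05 for all tested genes. Without control replicate 1, 4 of 9 were called lower (Cyp7a1, Akr1d1, Cyp27a1 and Baat) and 0 higher, beside 16.1% and 16.5% of 14222 tested genes. The median of the members in that fit was -0.29, against 0.01 for all tested genes. By DESeq2 with all libraries 0 members were called, beside 0.963% of 22961 genes lower and 2.57% higher. Genes with few reads were kept in that set, so these shares are not on the gene set of edgeR. By limma-voom with quality weights the same 4 members were lower, beside 18.2% lower and 18.7% higher. On log2(FPKM + 1) limma called 0 of 10 with all libraries, beside 0.22% lower and 0.871% higher. When control replicate 1 was left out it called those 4 and Cyp39a1 lower, beside 17.5% lower and 14% higher.

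**Figure D1:**
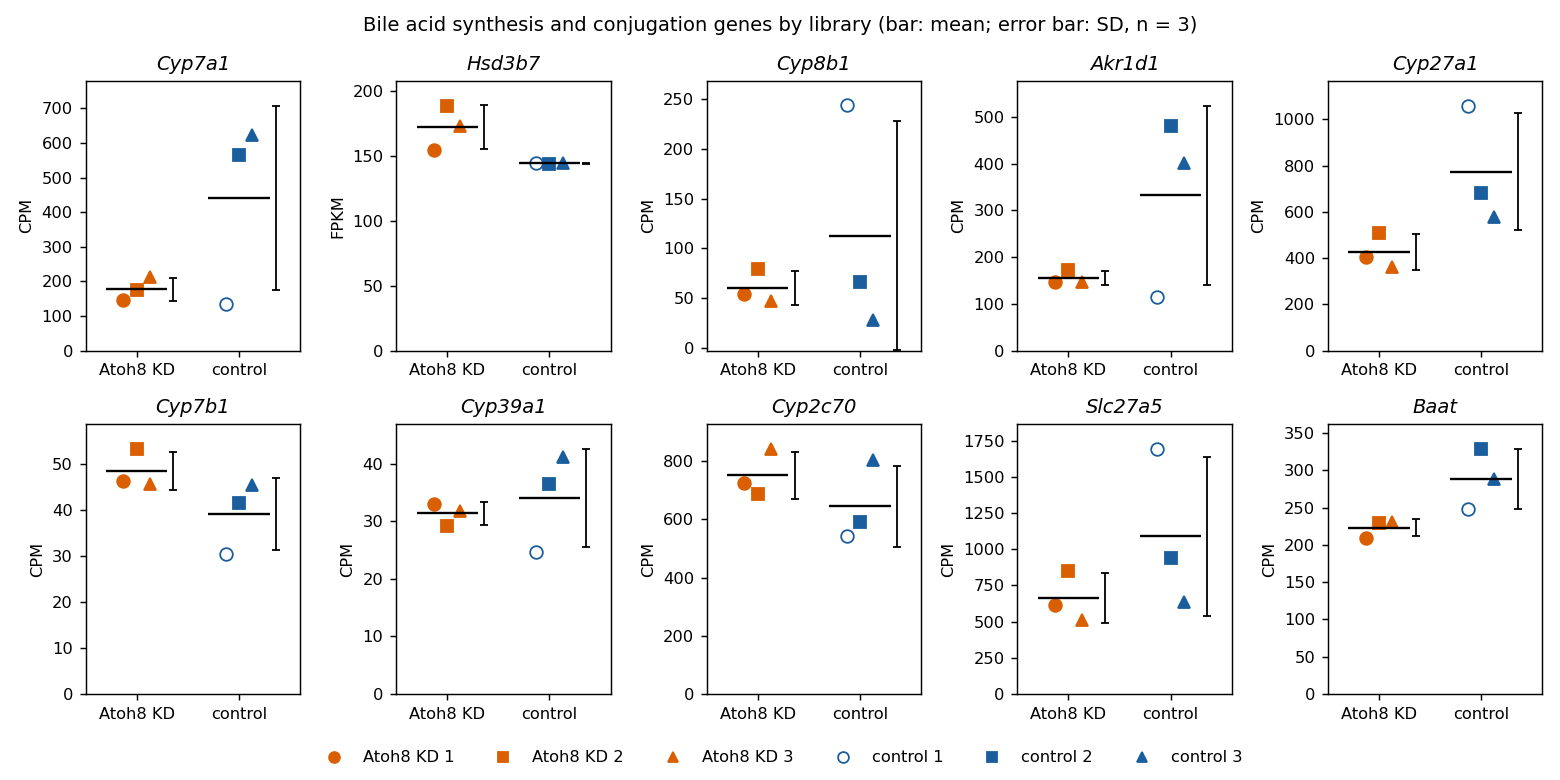
Level of each member in every library, in CPM (Hsd3b7 in FPKM), with the knockdown libraries on the left and the control libraries on the right of each panel. Horizontal bars are means and error bars SD over 3 libraries. Control replicate 1, the open circle, lies near the knockdown libraries for Cyp7a1 (136 CPM) and Akr1d1 (115 CPM) and far above them for Cyp8b1 (244 CPM), Cyp27a1 (1060 CPM) and Slc27a5 (1695 CPM).

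Cyp7a1 (ENSMUSG00000028240, chromosome 4, 6265612 to 6275633, minus strand), which encodes the rate-limiting hydroxylase of the classic route, had 146, 174 and 213 CPM in the knockdown libraries, against 136, 565 and 624 CPM in control replicates 1 to 3. The knockdown libraries lay close together, and the lowest of all 6 values was that of control replicate 1, so the groups overlapped. The means were 177 ± 33.8 CPM in knockdown and 441 ± 267 CPM in control libraries (SD, n = 3 each), a log2 fold change of -1.31 (SE 0.52, 95% interval -2.53 to -0.10) that did not pass (edgeR adjusted p = 0.306). In the fit without control replicate 1, Cyp7a1 fell by 1.73 on the log2 scale, or 3.31-fold, with an SE of 0.18 and an edgeR adjusted p of 0.000246.

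Akr1d1 (ENSMUSG00000038641, chromosome 6, 37530173 to 37568815, plus strand), whose product reduces the ring double bond on the way to the bent bile acid skeleton, varied over the libraries like Cyp7a1. It had 147, 173 and 146 CPM in knockdown, against 115, 480 and 401 CPM in control replicates 1 to 3. Again the knockdown values lay above control replicate 1 and well below the other controls. With all libraries the log2 fold change was -1.09 (SE 0.47, edgeR adjusted p = 0.3502), and Akr1d1 fell without control replicate 1 (-1.49, SE 0.15, edgeR adjusted p = 0.000224). Over the 6 libraries the log2 CPM of Akr1d1 and Cyp7a1 had a Pearson correlation of 0.967, a description of 6 points that share the same library differences.

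Hsd3b7 encodes the dehydrogenase that acts on the hydroxylated sterols of both routes. Its deposited FPKM, a value scaled by transcript length and library size, was 155, 189 and 172 in knockdown, against 144, 143 and 144 in control libraries. All 3 knockdown libraries lay above all 3 controls, and control replicate 1 did not stand apart. The share of all genes with such a lack of overlap was not computed in FPKM. In CPM it was 13% of tested genes in the higher direction. The means were 172 ± 16.9 and 144 ± 0.601 FPKM in knockdown and control (SD, n = 3 each). The log2 fold change on the log2(FPKM + 1) scale was 0.25 (SE 0.16), which did not pass with limma over 12279 genes (limma adjusted p = 0.532), nor without control replicate 1 (0.25, SE 0.12, limma adjusted p = 0.165).

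Hsd3b7 overlaps other annotated genes. It (ENSMUSG00000042289, chromosome 7, 127800604 to 127803802, plus strand) shares 99.2% of its exonic bases with other genes of the count files in GENCODE M21. Gm49388, a protein-coding model on the same strand, covers 62.0% of them and also had 0 reads in every library, and 9430064I24Rik, on the opposite strand, covers 62.4% and had 3 to 8 reads. Ambiguous reads made up 5.79% to 6.17% of all counted reads in knockdown and 4.69% to 6.87% in control libraries. Whether the reads of Hsd3b7 are among them was not tested. No other member overlapped an exon of another gene or shared a stretch of 50 bases of its longest transcript with one.

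Cyp8b1 (ENSMUSG00000050445, chromosome 9, 121914356 to 121916305, minus strand), which steers synthesis toward cholic acid, was the most variable member among the controls. It had 54.5, 79.6 and 47.3 CPM in knockdown, against 244, 66.0 and 28.04 CPM in control replicates 1 to 3, so that the controls spanned 8.69-fold and the knockdown libraries, which lay within that span, 1.68-fold. The log2 fold change was -0.90 (SE 0.70, 95% interval -2.54 to 0.75, edgeR adjusted p = 0.619). Without control replicate 1 it was 0.37 (SE 0.32, 95% interval -0.33 to 1.08, edgeR adjusted p = 0.399), so the sign of the difference turned on that library. Neither fit passed, and each interval still includes a 2-fold difference, downward with all libraries and upward without control replicate 1.

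Cyp27a1 (ENSMUSG00000026170, chromosome 1, 74713574 to 74737892, plus strand), the mitochondrial side-chain hydroxylase of the alternative route, had 406, 511 and 363 CPM in knockdown, against 1060, 683 and 580 CPM in control replicates 1 to 3. Every knockdown library lay below every control. Such a lack of overlap in the lower direction was seen for 10% of all tested genes and for 2 of the 9 members, the other being Baat. The means were 426 ± 76.4 CPM in knockdown and 774 ± 253 CPM in control libraries (SD, n = 3 each), a log2 fold change of -0.86 (SE 0.28, edgeR adjusted p = 0.221). Without control replicate 1, the highest of the 6 libraries, the difference was smaller and passed (log2 fold change -0.55, SE 0.17, with edgeR adjusted p = 0.0351).

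Cyp7b1 (ENSMUSG00000039519, chromosome 3, 18071950 to 18243338, minus strand), the oxysterol hydroxylase that follows CYP27A1, had 46.4, 53.4 and 45.7 CPM in knockdown, against 30.4, 41.7 and 45.5 CPM in control libraries. All knockdown values lay above all controls, by a margin of less than 1 CPM between the nearest libraries, and in FPKM the groups overlapped. A lack of overlap in the higher direction was seen for 13% of tested genes. The log2 fold change was 0.31 (SE 0.21, 95% interval -0.19 to 0.80, edgeR adjusted p = 0.574). Cyp39a1 (ENSMUSG00000023963, chromosome 17, 43667425 to 43751431, plus strand), an oxysterol hydroxylase that prefers a sterol already hydroxylated on its side chain, was the member with the lowest level per length. It had 33.1, 29.2 and 31.9 CPM in knockdown, against 24.7, 36.5 and 41.2 CPM in controls, and did not pass (log2 fold change -0.12, SE 0.23, edgeR adjusted p = 0.854).

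Cyp7b1 is known to be higher in male than in female mouse liver, so genes that mark sex were read beside it. Xist had at most 0.097 CPM in any library. The 4 Y-linked genes tested (Ddx3y, Eif2s3y, Kdm5d and Uty) had at least 2.48 CPM in every library. Both readings are those of male mice in all 6 libraries. The Y-linked genes were lowest in control replicate 1 and highest in the other controls. All 4 were called lower in knockdown without that library, beside 16.1% of all tested genes. With the GC and length offset described below, 0 passed with all libraries. Without control replicate 1, 2 were lower with the offset, beside 20.3% of genes. Ddx3y, for example, stood at 28.05, 34.9 and 38.4 CPM in knockdown, against 9.67, 92.6 and 110.1 CPM in control replicates 1 to 3, and its longest transcript holds 36.1% GC. Of 5 male-biased liver genes tested Elovl3 rose with all libraries (log2 fold change 2.87, SE 0.44, edgeR adjusted p = 0.0402). In that fit 0.741% of all tested genes were called higher. Cyp4a12a was lower without control replicate 1 (-0.99, SE 0.22, edgeR adjusted p = 0.00726). Of 5 female-biased genes none passed with all libraries. The part of sex-biased transcription in the level of Cyp7b1 was not tested.

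Cyp2c70 (ENSMUSG00000060613, chromosome 19, 40153353 to 40187333, minus strand), the mouse enzyme of muricholic acid synthesis, had 727, 687 and 843 CPM in knockdown, against 542, 590 and 804 CPM in control libraries. The groups overlapped, with control replicate 3 among the knockdown values. The log2 fold change was 0.22 (SE 0.22, 95% interval -0.30 to 0.74, edgeR adjusted p = 0.705), and without control replicate 1 it was 0.13 (SE 0.18, edgeR adjusted p = 0.637). Cyp2c70 belongs to the large Cyp2c family, but none of the 50-base stretches of its longest transcript occurred in a transcript of another gene.

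Slc27a5 (ENSMUSG00000030382, chromosome 7, 12988346 to 12998192, minus strand), which encodes the coenzyme A ligase that activates bile acids, had 618, 851 and 514 CPM in knockdown, against 1695, 938 and 633 CPM in control replicates 1 to 3. The groups overlapped, and control replicate 1 again lay far above the rest. The log2 fold change was -0.72 (SE 0.39, edgeR adjusted p = 0.456), and without that library -0.24 (SE 0.23, 95% interval -0.75 to 0.28, edgeR adjusted p = 0.471). Baat (ENSMUSG00000039653, chromosome 4, 49489422 to 49506557, minus strand), which joins the activated bile acid to taurine, had 209.5, 229 and 231 CPM in knockdown, against 248.7, 329 and 288 CPM in control libraries. Every knockdown library lay below every control, with means of 223 ± 11.9 and 289 ± 40.2 CPM in knockdown and control (SD, n = 3 each). The difference was -0.37 on the log2 scale with all libraries (SE 0.18) and did not pass (edgeR adjusted p = 0.414), and it passed without control replicate 1 (-0.45, SE 0.14, edgeR adjusted p = 0.0334).

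Promoter windows were available for 5 of the 10 members in the RefSeq table of GRCm38.p6. The 250 bases before the start are shown for Cyp8b1, which was highest in control replicate 1, and for Akr1d1 and Cyp27a1, which were lower in knockdown without that library. Capitals mark matches, on either strand, to CANNTG, the E-box read by basic helix-loop-helix factors, to CAAGGNCA, a nuclear receptor element of the kind bound by the Nr5a2 product, and to TATAAA. No match overlapped another.
Cyp8b1 promoter, GRCm38.p6 chr9:121916306-121916555, minus strand: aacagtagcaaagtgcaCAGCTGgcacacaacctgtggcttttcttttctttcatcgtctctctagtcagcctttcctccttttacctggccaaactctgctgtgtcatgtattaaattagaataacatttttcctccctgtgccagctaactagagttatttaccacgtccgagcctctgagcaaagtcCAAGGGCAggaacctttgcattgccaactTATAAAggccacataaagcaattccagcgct
Akr1d1 promoter, GRCm38.p6 chr6:37529923-37530172, plus strand: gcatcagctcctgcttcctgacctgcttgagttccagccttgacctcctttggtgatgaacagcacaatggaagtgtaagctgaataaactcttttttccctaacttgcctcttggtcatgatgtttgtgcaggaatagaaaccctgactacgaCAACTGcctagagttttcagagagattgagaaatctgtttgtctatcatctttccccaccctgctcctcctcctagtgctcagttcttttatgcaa
Cyp27a1 promoter, GRCm38.p6 chr1:74713285-74713534, plus strand: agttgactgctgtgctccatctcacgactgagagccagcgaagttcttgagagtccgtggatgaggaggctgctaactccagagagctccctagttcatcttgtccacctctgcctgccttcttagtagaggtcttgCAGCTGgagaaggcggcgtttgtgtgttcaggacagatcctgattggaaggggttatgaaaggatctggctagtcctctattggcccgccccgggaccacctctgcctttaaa
The Cyp8b1 window held an E-box from -233 to -228, the nuclear receptor element CAAGGGCA from -60 to -53 and TATAAA from -31 to -26, counted back from the start. Akr1d1 held 1 E-box from -96 to -91 and Cyp27a1 held 1 from -113 to -108, with no match to the other motifs in these windows. The windows not shown also held E-boxes, for Hsd3b7 from -148 to -143 and for Cyp2c70 from -249 to -244 and from -154 to -149. Neither of these genes was called lower in the fits that held it, which for Hsd3b7 were those on FPKM alone. Whether an E-box bears on the level of a member was not tested. Of all 32851 promoter windows of that length, 66.2% held CANNTG, 5.53% CAAGGNCA and 12.4% TATAAA. A match describes the letters of the window and is not evidence of binding.

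The way in which control replicate 1 departed from the other controls followed the base composition of the members. Its log2 CPM minus the mean of control replicates 2 and 3 was -2.13 for Cyp7a1 and -1.93 for Akr1d1, whose longest transcripts hold 39.7% and 40.9% GC. It lay 2.50, 1.14 and 0.75 above them for Cyp8b1, Slc27a5 and Cyp27a1, at 54.8%, 53.1% and 53.5% GC. The members between 42.5% and 44.9% GC (Cyp2c70, Cyp7b1, Cyp39a1 and Baat) lay between, with differences of -0.65 to -0.31. Across 13729 tested genes with a known transcript, this difference had a Spearman correlation of 0.644 with GC content, and the lowest of 5 equal classes by GC, up to 43.7%, had a median difference of -1.56. Cyp8b1 departed further than its composition class, since genes between 51.3% and 55.2% GC had a median difference of 0.50.

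The knockdown libraries also differed from control replicates 2 and 3 with GC content, though less steeply (Spearman correlation 0.355 across the same genes). Genes in the lowest GC class had a median log2 difference of -0.46, and 40.9% of them were called lower in the fit without control replicate 1. Cyp7a1 and Akr1d1 belong to that class, and their differences of -1.76 and -1.50 were larger than its median. Of the other members in that class, Cyp39a1 had a difference of -0.31, near the class median, and Cyp7b1 and Cyp2c70 had differences of 0.15 and 0.12. Cyp27a1 lay at -0.58, while its class from 51.3% to 55.2% GC had a median of 0.15 and 6.23% of genes called lower. All these points share the same libraries, and the correlations are given as a description. The part of this dependence in the differences of the members between groups was not tested beyond the offset described next.

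**Figure D2:**
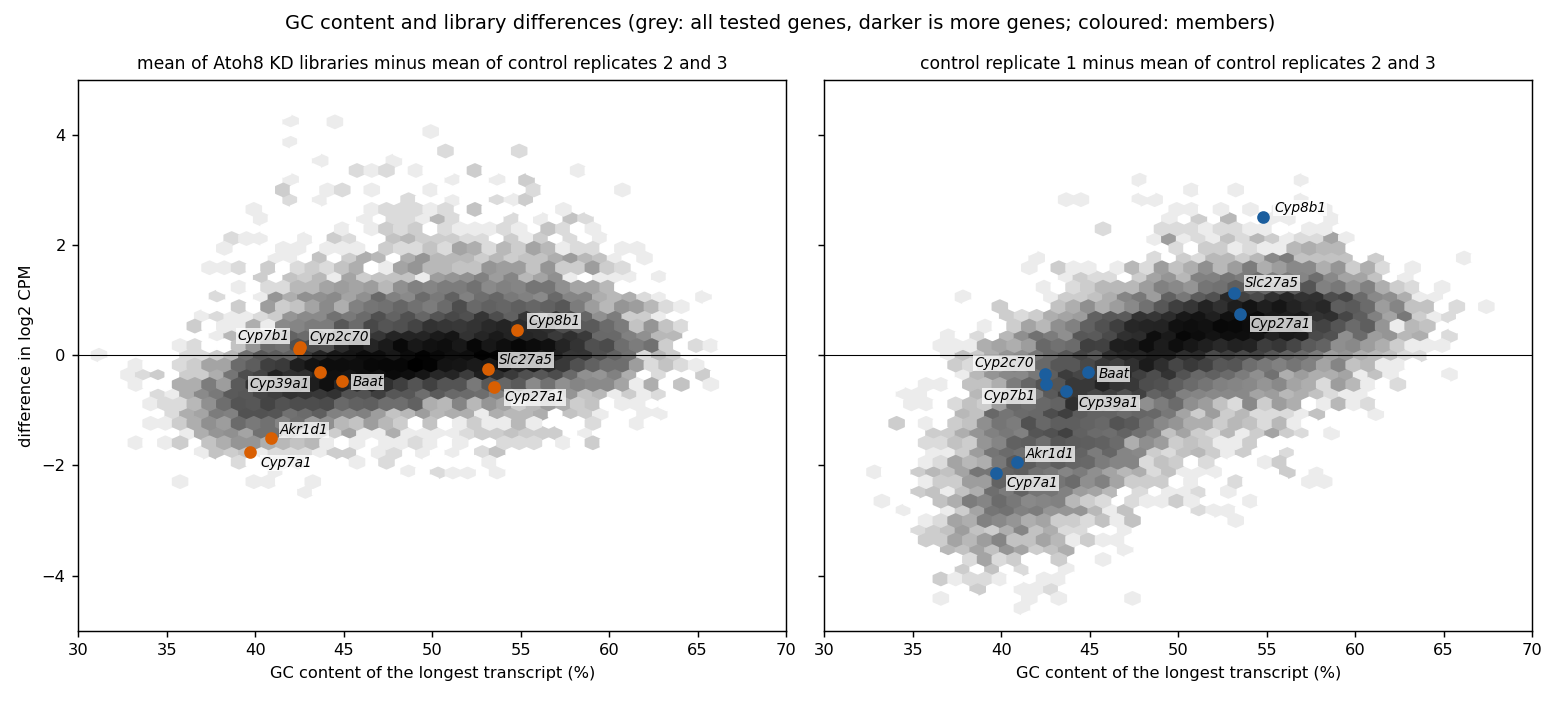
Difference in log2 CPM against GC content of the longest transcript, for the mean of the knockdown libraries (left) and for control replicate 1 (right), each minus the mean of control replicates 2 and 3. Grey hexagons are tested genes, darker where there are more, and coloured points the 9 members in the counts. On the right the members run from -2.13 (Cyp7a1) to 2.50 (Cyp8b1), and on the left from -1.76 (Cyp7a1) to 0.46 (Cyp8b1).

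An offset for GC content and transcript length, fitted to each library, was added after seeing the data. It narrowed the errors of Cyp7a1 and Akr1d1 and brought 3 of 9 members past the threshold with all 6 libraries, where 2.19% of 13729 genes were called lower and 2.32% higher. Cyp7a1 fell by 1.24 on the log2 scale (edgeR adjusted p = 0.0170), Akr1d1 by 1.02 (edgeR adjusted p = 0.0362) and Cyp27a1 by 0.87 (edgeR adjusted p = 0.0406). The median of all tested genes in this fit was -0.16, so relative to it the decreases are smaller by that amount. With the offset and without control replicate 1, Cyp7a1, Akr1d1, Cyp27a1 and Baat were called lower (log2 fold changes -1.36, -1.17, -0.80 and -0.39), beside 20.3% of 14182 genes lower and 12.3% higher. The offset also removes any real difference between the groups that follows GC content or length.

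**Figure D3:**
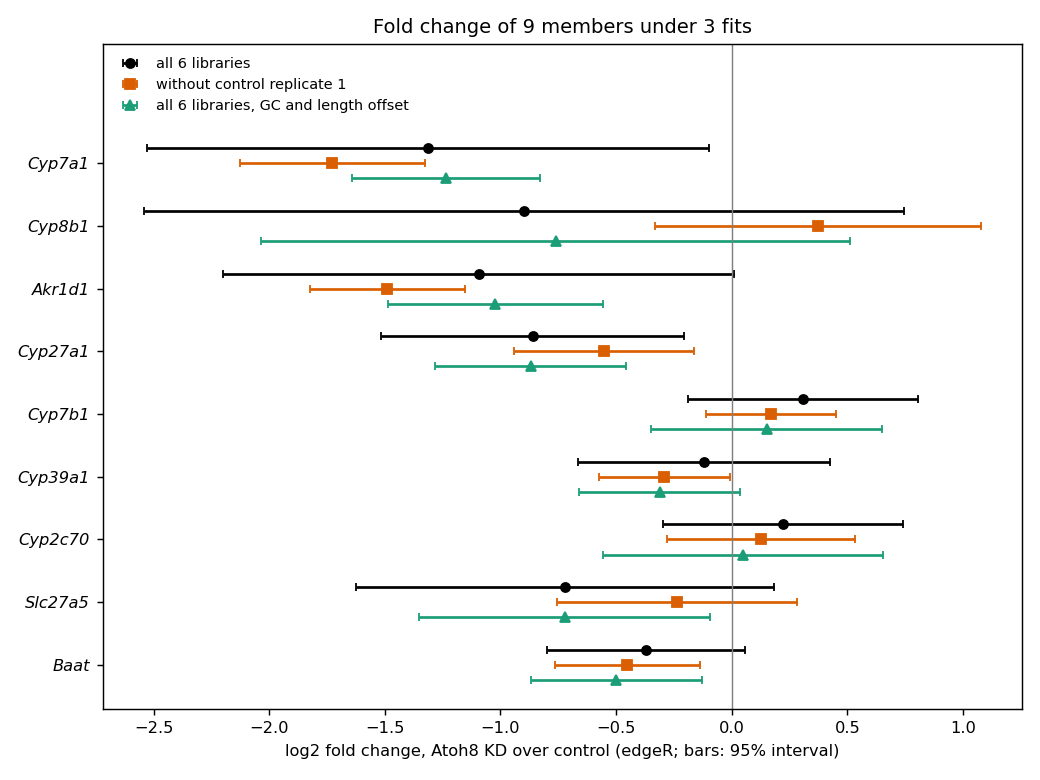
Log2 fold change of the 9 members in the counts, knockdown over control, with 95% intervals from edgeR, for all 6 libraries, without control replicate 1, and for all 6 libraries with an offset for GC content and length. The intervals of Cyp7a1 and Akr1d1 narrow without control replicate 1 and with the offset, and Cyp8b1 lies at -0.90 with all libraries and at 0.37 without control replicate 1.

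In levels per length fewer neighbours in the order of the enzymes overlapped in the knockdown group than in the controls. Among knockdown libraries Cyp2c70 stood highest at 584 ± 26.3 FPKM, followed by Slc27a5 at 346 ± 92.3, Cyp27a1 at 249.7 ± 38.9, Hsd3b7 at 172 ± 16.9, Baat at 131 ± 5.53, Akr1d1 at 65.2 ± 9.01, Cyp7a1 at 50.2 ± 5.34, Cyp8b1 at 34.7 ± 9.48, Cyp7b1 at 28.1 ± 3.93 and Cyp39a1 at 11.4 ± 0.781 FPKM (SD, n = 3). Only the neighbours Slc27a5 and Cyp27a1, and Cyp8b1 and Cyp7b1, overlapped in that order. In the controls Slc27a5 came first at 576 ± 293 FPKM, ahead of Cyp2c70 at 532 ± 114 and Cyp27a1 at 450.3 ± 138 FPKM (SD, n = 3). That lead of the mean rested on control replicate 1, where Slc27a5 had 899.6 FPKM and Cyp2c70 441 FPKM. In control replicate 2 they stood close, at 499.2 and 495.0 FPKM, and in control replicate 3 at 328.7 and 660.1 FPKM. Over control replicates 2 and 3 Cyp2c70 averaged 577.5 FPKM and Slc27a5 414 FPKM. The neighbours that did not overlap there were Cyp27a1 above Baat and Cyp7b1 above Cyp39a1. Cyp39a1 was lowest in both groups, at 13.2 ± 3.19 FPKM in controls.

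Ratios between members within a library do not depend on how the library is scaled. Each of 5 ratios of FPKM was set between groups by an exact two-sided permutation test over libraries, for which 3 against 3 allows no p below 0.1. None reached that limit with all libraries, and after adjustment over the 5 ratios all stood at p = 0.9 by the exact permutation test. The ratio of Cyp7a1 to Cyp7b1, the hydroxylases of the classic and the alternative route, was 1.70, 1.46 and 2.31 in knockdown, against 2.26, 6.71 and 7.11 in control replicates 1 to 3 (exact permutation p = 0.2). Control replicate 1 thus lay between knockdown replicates 1 and 3, below the other controls.

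The ratio of Cyp8b1 to Cyp7a1, which sets the cholic acid branch against entry into the classic route, was 0.658, 0.966 and 0.489 in knockdown, against 3.20, 0.227 and 0.0794 in control replicates 1 to 3 (exact permutation p = 0.7). The controls therefore enclosed the knockdown libraries from both sides. Without control replicate 1 every knockdown library lay above every control, with a log2 difference of 2.33 (exact permutation p = 0.1, the smallest that 3 against 2 allows). The ratio of Cyp7a1 to Cyp27a1 was 0.20, 0.160 and 0.257 in knockdown, against 0.0713, 0.408 and 0.585 in controls (exact permutation p = 0.8). The log2 differences of Cyp2c70 to Cyp8b1 and of Slc27a5 to Baat were 0.51 and -0.22 (exact permutation p = 0.8 and p = 0.9), and both turned without control replicate 1, to -0.44 and 0.26 (exact permutation p = 0.6 and p = 0.4). In that setting every knockdown library lay below both controls for Cyp7a1 to Cyp7b1 and for Cyp7a1 to Cyp27a1, with log2 differences of -1.95 and -1.27 (exact permutation p = 0.1 each, the smallest possible).

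**Figure D4:**
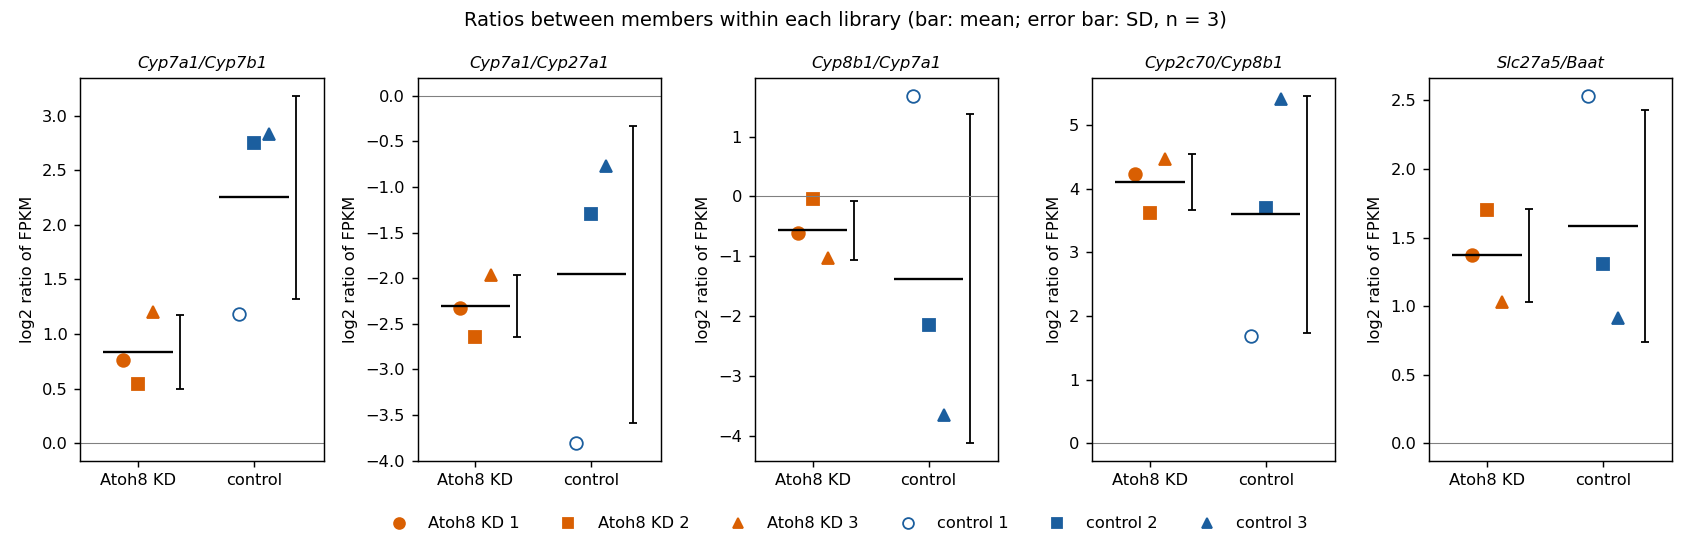
Log2 ratios of FPKM between pairs of members in each library, knockdown on the left and control on the right of each panel, with means as bars and SD as error bars over 3 libraries. Control replicate 1, the open circle, lies on the other side of the knockdown libraries from control replicates 2 and 3 for Cyp8b1/Cyp7a1 and Cyp7a1/Cyp27a1.

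Other genes of bile acid metabolism were read from lists chosen for their function, with earlier results of these data known. Among 7 genes of peroxisomal side-chain shortening none passed with all 6 libraries, and 2 fell without control replicate 1, a fit in which 16.1% of all tested genes were called lower and 16.5% higher. These were Scp2, whose product is a sterol carrier and thiolase, with a log2 fold change of -0.84 (SE 0.19, edgeR adjusted p = 0.00891), and Abcd3, a peroxisomal membrane transporter, with one of -0.76 (SE 0.16, edgeR adjusted p = 0.00538). With all libraries both stood at -0.44 and -0.40 (edgeR adjusted p = 0.730 and 0.711), and control replicate 1 lay below the knockdown libraries for each. Scp2, for example, had 1175, 1246 and 1529 CPM in knockdown, against 605, 2040 and 2731 CPM in control replicates 1 to 3.

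Of 10 tested regulators of the pathway 0 passed with all libraries, and without control replicate 1 there were 3 lower and 1 higher, to be read against the same 16.1% lower and 16.5% higher over all genes. The lower ones were Nr1h4, which encodes FXR, Nr5a2, which encodes an activator of Cyp7a1 and Cyp8b1, and the xenobiotic receptor gene Nr1i2. In that fit they stood at -0.52 (SE 0.14), at -0.73 (SE 0.13) and at -0.47 (SE 0.16) on the log2 scale, in that order. Control replicate 1 lay below every knockdown library for Nr5a2 (28.3 CPM), among them for Nr1h4 and above them for Nr1i2. Fgfr4, the hepatocyte receptor for the gut hormone that represses Cyp7a1, was higher in that fit at 0.54 (SE 0.15, edgeR adjusted p = 0.0193). It had 72.5, 73.2 and 55.0 CPM in knockdown, against 91.6, 46.1 and 46.9 CPM in controls, and with the GC offset its difference without control replicate 1 did not pass (edgeR adjusted p = 0.402). Nr0b2, the FXR target gene that encodes SHP, had 21.3, 23.2 and 10.6 CPM in knockdown, against 21.6, 16.0 and 6.01 CPM in controls, overlapping ranges with no call in either fit (edgeR adjusted p = 0.799 with all libraries). Fgf15, the ligand of FGFR4, had 0 reads in every library.

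Of 11 tested bile acid and organic anion transporters none passed with all libraries and 4 were lower without control replicate 1, beside 16.1% of all tested genes. They were the uptake carrier genes Slco1b2 and Slco1a4, the canalicular exporter gene Abcc2 and the flippase gene Atp8b1. In that fit their log2 fold changes were -1.46, -1.06, -0.78 and -0.62, in that order. Control replicate 1 lay below every knockdown library for Slco1b2 (87.2 CPM) and Atp8b1 (21.0 CPM). For Slco1a4 and Abcc2 it lay above every knockdown library. With all libraries 3 of the 11 had no overlap between groups, Slco1a4 and Abcc2 with knockdown lower and the phospholipid exporter gene Abcb4 with knockdown higher, where 10% and 13% of all tested genes did so in the lower and the higher direction. Abcb4 had 668, 564 and 582 CPM in knockdown, against 463, 476 and 429 CPM in controls. Abcc2 was lower with the GC offset and all libraries (-0.86, edgeR adjusted p = 0.0461), where 2.19% of all tested genes were called lower. Of 4 genes of taurine supply 1 fell with all libraries, beside 0.123% of all tested genes called lower. This was Csad, which encodes an enzyme of the synthesis of the taurine that BAAT attaches. It had 95.8, 128 and 111 CPM in knockdown, against 464, 396 and 406 CPM in controls (log2 fold change -1.92, SE 0.20, edgeR adjusted p = 0.0182). Control replicate 1 lay with the other controls. Slc6a6, the taurine carrier gene, was higher without control replicate 1 (0.52, SE 0.17, edgeR adjusted p = 0.0438) and had a log2 fold change of 0.063 with all libraries.

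**Figure D5:**
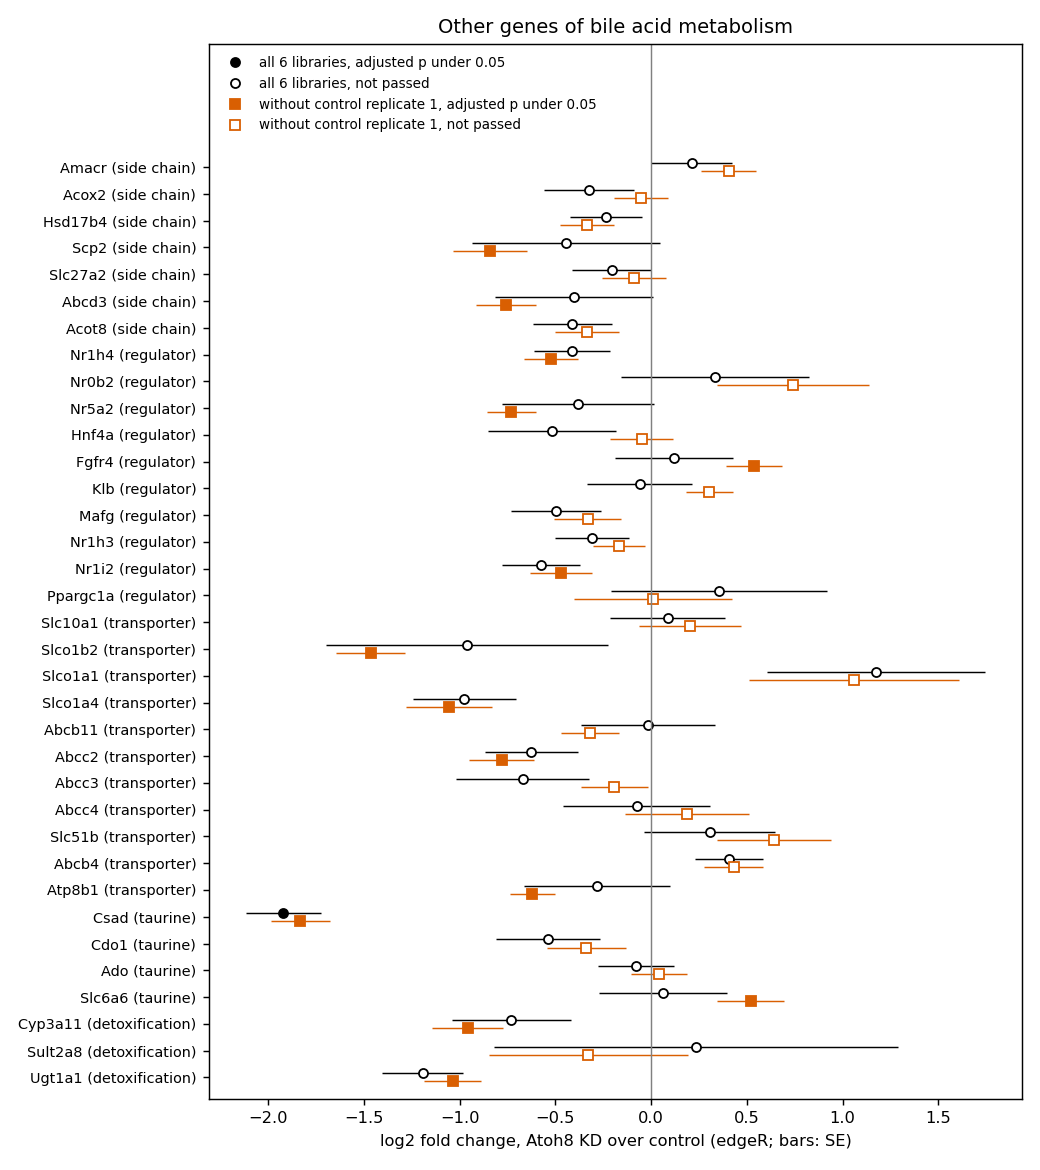
Log2 fold change, knockdown over control, of the tested genes of side-chain shortening, regulation, transport, taurine supply and detoxification, with SE as bars, for all 6 libraries and without control replicate 1. Filled symbols passed at an edgeR adjusted p under 0.05. With all libraries Csad alone is filled, at -1.92.

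Among markers of other liver cells, Spp1 and Prom1 (cholangiocyte list) and Acta2 (stellate cell list) were higher in knockdown by edgeR with all libraries. In that comparison 0.741% of all tested genes were called higher. Acta2 was near the floor, with 0.94 to 1.26 CPM in knockdown and at most 0.033 CPM in control libraries. In the fit without control replicate 1, where 4 bile acid enzymes were called lower, 5 of 6 lipid-associated macrophage markers, 3 of 6 Kupffer cell markers, 3 of 6 stellate cell markers and 2 of 5 tested cholangiocyte markers were called higher. None of these lists had a marker called lower there. Over all tested genes, 16.5% were called higher and 16.1% lower in that fit. Spp1 is also known to be expressed by macrophages. The summed level of 8 cholangiocyte markers was 344 to 571 CPM in knockdown and 47.9 to 53.7 CPM in control libraries, most of it from Spp1, with 322 to 539 CPM in knockdown and 30.7 to 40.8 CPM in control libraries. The bile duct keratin gene Krt19 had at most 0.166 CPM and Cftr at most 0.170 CPM in any library. The sum of 6 lipid-associated macrophage markers was 181 to 275 CPM in knockdown and 107 to 249 CPM in controls, the highest control being replicate 1. The sum of 6 stellate cell and fibroblast markers was 190.2 to 305 CPM in knockdown and 103 to 150.4 CPM in controls. The sum of 6 Kupffer cell markers was 319.8 to 385 CPM in knockdown and 201 to 323 CPM in controls, and that of 5 endothelial markers 101 to 145 CPM in knockdown and 116 to 130.4 CPM in controls. The 3 lymphocyte and neutrophil markers summed to at most 0.431 CPM. Their part in the levels of the bile acid enzymes was not tested.

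The genes whose log2 CPM varied most like Cyp7a1 over the 6 libraries, among 7451 genes that averaged 10 CPM or more, were Lyrm5, Agmo and Zfp106, with Pearson correlations of 0.997, 0.996 and 0.994. Agmo, which encodes an alkylglycerol-cleaving monooxygenase, had 67.9, 75.6 and 79.5 CPM in knockdown, against 68.2, 149.2 and 149.6 CPM in control replicates 1 to 3. The 3 genes were picked for likeness to Cyp7a1, so their sharing its pattern, control replicate 1 at the knockdown level, follows from that choice. Lyrm5 and Agmo also shared the low GC content of Cyp7a1, at 39.9% and 39.6%, and Zfp106 held 47.1%.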

How the data were processed

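The authors deposited raw read counts per gene for each library and an FPKM table (scaled by transcript length and library size) for all libraries. Per the submitters' processing notes, which give no roles, the tools were FastQC, Trim Galore, HISAT2 2.10, HTSeq and Cufflinks 2.2.1, and the builds are GRCm38 and mm10. Whether counting used strand is not stated there. Lines naming no gene, with 2.48% to 5.66% of reads outside genes and 4.69% to 6.87% ambiguous, were left out.

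The edgeR test (edgeR 4.0.16, R 4.3.3) used group alone, after filterByExpr and TMM scaling. SE is the log2 fold change over the root of F. CPM uses TMM-scaled totals, and log2 CPM a prior count of 2. FPKM was tested with limma 3.58.1 on log2(FPKM + 1), for genes at 0.5 or more in 3 libraries. Members were joined by symbol and gene ID, and annotation came from GENCODE M21. Replicates of a group differed by more than sampling noise, with a chi-square of 50.2 or more per gene. The edgeR fit and the GC offset were tested on simulated data. The members and lists were chosen with earlier results of these data known. All 10 members were named, and from each further list up to 4 genes that passed with or without control replicate 1, or 2 where none did, by smallest p, with a few values added after they were seen (Nr0b2 and Fgf15). A further gene that this rule names is not reported here. Promoter sequences are from RefSeq (GRCm38.p6). Alternatives are listed in the closing section, and DESeq2 1.42.0 was one of them.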

Additional observations from a re-analysis of the deposited data

How the results depend on the processing

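With all 6 libraries and edgeR, 102 genes were higher and 17 lower. The counts of higher and lower genes were 213 and 34 with no filter, 590 and 221 by DESeq2, 2576 and 2512 by limma-voom with quality weights, 107 and 27 by limma on log2(FPKM + 1), 40 and 7 by the same with no filter, and 318 and 301 with the GC and length offset. Without control replicate 1 they were 1714 and 2145 by limma on log2(FPKM + 1) and 1746 and 2884 with the offset. The offset and this FPKM setting were chosen after seeing the data. Leaving out each library in turn gave 0 to 2348 higher and 0 to 2284 lower, with 2348 and 2284 without control replicate 1, 20 and 1 without control replicate 3, 10 and 0 without knockdown replicate 2, and 0 without control replicate 2 or knockdown replicate 1 or 3, where 1633, 1130 and 1224 genes had an unadjusted p under 0.05 in edgeR.

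Members called lower were 0 with all libraries by edgeR, 3 with the offset, 4 by limma-voom with quality weights, 4 with the offset and without control replicate 1, 5 by limma on log2(FPKM + 1) without control replicate 1 (Cyp39a1 added), and 0 to 4 over the libraries left out, with 4 only without control replicate 1. None was called higher in any of these fits. Cyp8b1 turned to 0.37 without control replicate 1, 0.22 by limma-voom, 0.45 by limma on log2(FPKM + 1) without control replicate 1 and 0.093 with the offset and without it, and Cyp39a1 to 0.033 without control replicate 3. The cause was not tested. Over the libraries left out Cyp8b1 ran from -1.36 to 0.37 and Cyp39a1 from -0.29 to 0.033. The other 7 members in the counts kept their direction in all fits run. Ranges over the libraries left out, as log2 differences, were -1.95 to -1.12 for Cyp7a1/Cyp7b1, -1.27 to 0.24 for Cyp7a1/Cyp27a1, -0.33 to 2.33 for Cyp8b1/Cyp7a1, -0.44 to 1.42 for Cyp2c70/Cyp8b1 and -0.55 to 0.26 for Slc27a5/Baat.

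Libraries with the same replicate number had deviations correlated at 0.253, -0.082 and 0.290, and those with different numbers at -0.331 to 0.270. With 3 libraries per group, these values cannot decide whether the number pairs them. With the replicate block 33 genes were higher, 2 lower and 0 members called.

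Members had 745 to 51193 reads per library apart from Hsd3b7, so the spread between libraries and not depth limits these comparisons. Protein identities were not run.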

Other observations

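Of 3 tested genes that detoxify bile acids and bilirubin, 0 passed with all libraries and 2 were lower without control replicate 1, Cyp3a11 and Ugt1a1, beside 16.1% of all tested genes. Cyp3a11, a hydroxylase of bile acids and drugs, had 9829, 10733 and 10724 CPM in knockdown, against 11001, 22234 and 18679 CPM in control replicates 1 to 3, with no overlap between groups (log2 fold change -0.73, SE 0.31, edgeR adjusted p = 0.342). Without control replicate 1 it was -0.96 (SE 0.19, edgeR adjusted p = 0.00420). A lack of overlap in the lower direction was seen for 10% of all tested genes. Ugt1a1, the glucuronosyltransferase of bilirubin, had 69.4, 80.9 and 60.3 CPM in knockdown, against 190.4, 157 and 134 CPM in controls, and its adjusted p with the GC offset and all libraries was 0.0293 by edgeR. With that offset and all libraries 2.19% of all tested genes were called lower. Ugt1a1 is known to share exons with the other Ugt1a genes, so its counts are uncertain.

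Cyp3a44, a gene with female-biased expression in mouse liver, had 9.72, 11.2 and 10.5 CPM in knockdown, against 10.5, 20.2 and 19.7 CPM in controls, and was lower without control replicate 1 (-0.91, SE 0.14, edgeR adjusted p = 0.00150). Of other genes that feed oxysterols into bile acid synthesis, Cyp46a1 and Star were each under 2 CPM in all libraries and Ch25h at or under 0.183 CPM.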
